A study of Mus musculus with 15 samples.

Results

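The genes described here are the 5 NFAT transcription factor genes of the mouse and 2 genes for calcineurin regulators, Rcan1 and Rcan2. They were taken by symbol from the deposited counts: Nfatc1, Nfatc2, Nfatc3, Nfatc4, Nfat5, Rcan1 and Rcan2, 7 of 25748 symbols. The set was chosen by the measured level of Nfatc2, which was nearly lost in both treated groups, so the levels of Nfatc2 against control are given as a description, with no test. All 7 had enough counts to be kept among the 15362 genes tested.

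NFATc1 to NFATc4 are transcription factors held phosphorylated in the cytoplasm of resting cells. When calcium rises, the phosphatase calcineurin strips these phosphates and the factors enter the nucleus, where they bind the core motif GGAAA, often beside AP-1 proteins. Kinases such as GSK3, CK1 and the DYRK family return them to the cytoplasm. NFAT5 shares the DNA-binding domain but not the calcineurin docking region, and is best known for the response to hypertonic stress. RCAN1 and RCAN2 bind calcineurin and can inhibit it, and a short form of Rcan1 is itself an NFAT target. In astrocytes the calcineurin and NFAT pathway is known from reactive states after injury and inflammation. It acts through protein location and phosphorylation, neither of which was measured here.

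The data are RNA sequencing of polyadenylated transcripts in cultured primary astrocytes from mouse brain, with 15 libraries in 3 groups of 5. The strain, genotype and age of the mice are not given in the labels. The control group had no treatment named. The group labelled SCI, called LPS here, was given the bacterial cell wall component lipopolysaccharide (LPS) at 1 µg/mL for 6 to 8 h as a stand-in for spinal cord injury, in brain cells in culture. The group labelled Rg1, called Rg1 plus LPS here, was given 80 µM ginsenoside Rg1, a saponin of ginseng, for 12 h and then LPS at the same dose and time. All Rg1 cells thus also received LPS, and no group with Rg1 alone was analysed here. Its treatment labels count up from Rg1 to Rg5, whereas titles and design describe a single Rg1 condition, which is how it was grouped. Whether libraries of a group stem from different cultures or mice is not stated, and p-values here therefore speak for the variation among these samples, which may be technical.

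Total counts were 34.2 to 41.8 M per library. Values are CPM, counts per M of the library size after TMM scaling, unless FPKM is named. The 10 astrocyte markers summed to 8890 to 11400 CPM in control, 5770 to 10000 CPM with LPS and 6280 to 9860 CPM with Rg1 plus LPS, with Gfap alone at 4020, 2850 and 3170 CPM. Of these 10 markers 6 fell and 0 rose in LPS against control, and 4 fell and 0 rose in Rg1 plus LPS against control. Between the treated groups 5 rose and 1 fell in Rg1 plus LPS. Of all genes tested, 9.82%, 18.1% and 23.2% were called lower (adjusted p under 0.05) in these 3 comparisons. Called higher were 13.8%, 18.8% and 22.2%. The 15 microglia and macrophage markers summed to 131 to 229, 134 to 215 and 118 to 146 CPM, and the sums were highest in control replicate 4 (229 CPM) and LPS replicates 2 and 3 (176 and 215 CPM). Within their groups these 3 libraries also had the highest astrocyte marker sums (11400, 7680 and 10000 CPM). Results on Nfatc1, Nfatc2, Rcan1, Cabin1 and Fosb are also given without these 3 libraries. Other calls of named genes lost without them are listed in the closing section on processing. The 4 T cell markers found summed to 0.427 to 0.878, 0.254 to 1.23 and 0.546 to 1.26 CPM in control, LPS and Rg1 plus LPS. Most of this was Lck, with means of 0.636, 0.667 and 0.908 CPM. Cd3d was at 0 in every control library, Cd8a in every treated library and Cd4 in every Rg1 plus LPS library. Cd3d had means of 0.034 CPM with LPS and 0.00532 CPM with Rg1 plus LPS.

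Nfatc2, the member the set was picked for, was close to lost in both treated groups. It lies on chromosome 2 at 168476410 to 168601657 on the minus strand of GRCm38.p6. In control the 5 libraries, in replicate order, held 50.0, 51.4, 46.7, 55.0 and 50.3 CPM (1749 to 1934 counts). In LPS they held 2.26, 2.71, 3.69, 2.40 and 1.93 CPM (77 to 120 counts). Those of Rg1 plus LPS held 1.93, 1.02, 1.85, 1.41 and 1.17 CPM (41 to 80 counts). No treated library came near the control range, although every treated library still held reads of the gene. The means were 50.7 ± 2.98, 2.6 ± 0.671 and 1.48 ± 0.406 CPM (SD, n = 5 each), so that LPS libraries kept 5.12% and Rg1 plus LPS libraries 2.91% of the control mean. The log2 fold changes against control were -4.29 ± 0.17 and -5.10 ± 0.18 (SE), the lowest but 3 and the lowest but 2 of the 15362 genes. In bulk RNA, fewer cells of a type and less RNA per cell cannot be told apart, for this gene or any below.

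The rule did not use the difference between the treated groups. Nfatc2 was lower in Rg1 plus LPS than in LPS by 0.81 ± 0.18 on the log2 scale (95% interval -1.19 to -0.42), and passed edgeR's quasi-likelihood test with Benjamini-Hochberg adjustment over all genes (adjusted p = 0.00179). The groups met only at their edges, since the highest Rg1 plus LPS library and the lowest LPS library both rounded to 1.93 CPM. The highest LPS value was that of replicate 3. With LPS replicates 2 and 3 and control replicate 4 left out, the log2 fold change was -0.55 (adjusted p = 0.0271).

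The windows upstream of the annotated starts are shown for Nfatc2, the most reduced of the 7, for Nfatc4, which was low in both treated groups, and for Rcan1, whose short form is a known NFAT target. They were chosen with the numbers of motif matches known. Each line gives the 250 bases before a RefSeq start on GRCm38.p6, 5′ to 3′ on the gene's own strand, with every GGAAA and its reverse complement TTTCC in capitals. Nfatc2 has 2 starts in the table, 11292 bases apart, and Rcan1 has 2, 66091 bases apart, the downstream start being that of the short form.
Nfatc2 upstream start, chr2:168601658-168601907, minus strand: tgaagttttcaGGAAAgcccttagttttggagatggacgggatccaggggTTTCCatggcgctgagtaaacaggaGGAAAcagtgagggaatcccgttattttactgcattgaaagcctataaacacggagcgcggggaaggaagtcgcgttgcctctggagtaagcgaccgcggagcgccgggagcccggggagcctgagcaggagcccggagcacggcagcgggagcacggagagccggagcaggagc
Nfatc2 downstream start, chr2:168590366-168590615, minus strand: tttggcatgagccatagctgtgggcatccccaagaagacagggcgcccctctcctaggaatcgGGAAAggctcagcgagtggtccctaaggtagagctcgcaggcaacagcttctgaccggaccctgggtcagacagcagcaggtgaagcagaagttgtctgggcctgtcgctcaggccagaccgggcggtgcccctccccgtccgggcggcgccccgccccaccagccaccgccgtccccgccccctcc
Rcan1 upstream start, chr16:92466170-92466419, minus strand: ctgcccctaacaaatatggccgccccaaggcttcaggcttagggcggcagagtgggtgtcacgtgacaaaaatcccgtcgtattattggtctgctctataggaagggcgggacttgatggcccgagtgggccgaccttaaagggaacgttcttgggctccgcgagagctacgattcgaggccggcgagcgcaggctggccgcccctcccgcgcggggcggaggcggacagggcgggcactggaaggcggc
Rcan1 downstream start, chr16:92400079-92400328, minus strand: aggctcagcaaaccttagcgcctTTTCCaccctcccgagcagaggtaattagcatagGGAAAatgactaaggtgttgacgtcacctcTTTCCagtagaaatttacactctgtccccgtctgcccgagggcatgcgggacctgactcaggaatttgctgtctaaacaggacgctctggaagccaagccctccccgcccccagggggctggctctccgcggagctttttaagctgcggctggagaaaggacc
Nfatc4, chr14:55824545-55824794, plus strand: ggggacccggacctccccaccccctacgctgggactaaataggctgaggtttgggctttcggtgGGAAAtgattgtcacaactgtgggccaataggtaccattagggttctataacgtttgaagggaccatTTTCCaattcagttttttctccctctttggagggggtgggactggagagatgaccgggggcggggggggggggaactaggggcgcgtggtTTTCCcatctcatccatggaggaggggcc
The upstream Nfatc2 window, the downstream Rcan1 window and the Nfatc4 window each hold 3 matches over both strands, a number reached or passed by 6.39% of the 32851 RefSeq windows of this length. The downstream Nfatc2 window holds 1 match, and 55.6% of all windows hold at least 1. The upstream Rcan1 window holds none. Of the windows not shown, those of Nfatc3 hold 1 and 0, that of Nfat5 holds 2, and those of Rcan2 hold 2, 0 and 0. A match describes letters and not binding. Promoter windows were matched for 6 of the 7 genes. Counts per gene do not separate the starts of a gene, so which start the reads of Nfatc2 or Rcan1 came from was not measured.

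**Figure D1:**
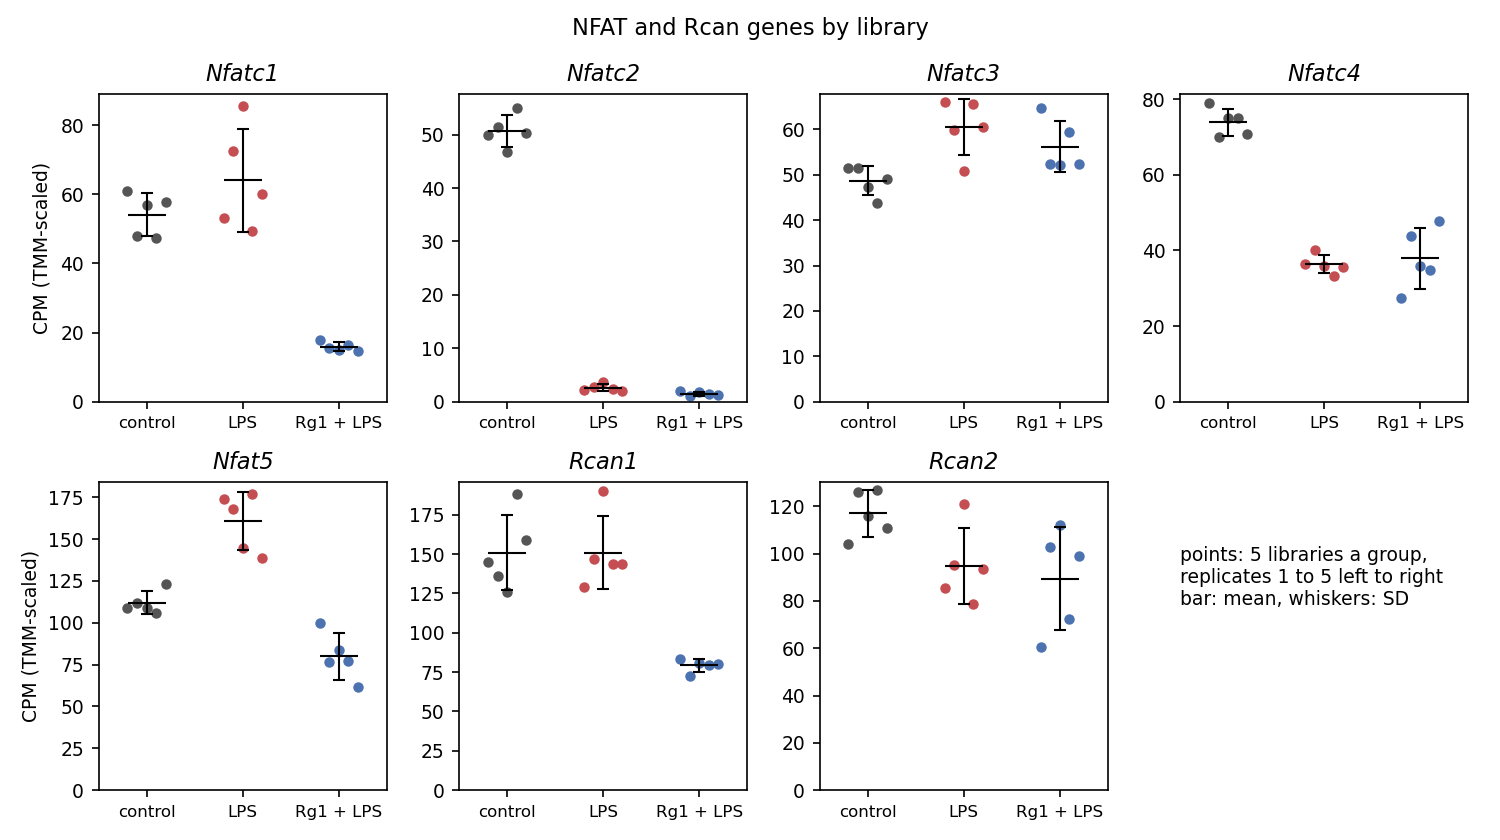
Level of each of the 7 genes in TMM-scaled CPM (linear axis from 0) in the 5 libraries of control, LPS and Rg1 plus LPS, with group mean and SD. Nfatc2 falls from about its control mean of 50.7 CPM to 2.6 and 1.48 CPM, and Nfatc1 and Rcan1 are low in the Rg1 plus LPS libraries.

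Nfatc1, on chromosome 18, behaved unlike Nfatc2: it was low only where Rg1 had been given before LPS. Control libraries held 61.0, 47.8, 56.8, 47.4 and 57.7 CPM. LPS libraries held 53.1, 72.5, 85.6, 49.5 and 60.0 CPM. Rg1 plus LPS libraries held 17.7, 15.5, 14.9, 16.5 and 14.7 CPM, the tightest group of the 3 and far below all 10 other libraries. The means were 54.1 ± 6.16, 64.1 ± 14.9 and 15.9 ± 1.24 CPM (SD, n = 5). Nfatc1 was 4.04-fold lower in Rg1 plus LPS than in LPS (log2 fold change -2.02 ± 0.13, edgeR adjusted p = 5.71e-09) and 3.41-fold lower than in control (-1.77 ± 0.13, adjusted p = 9.43e-08). In LPS against control the difference was 0.24 ± 0.13 (95% interval -0.03 to 0.51, adjusted p = 0.178) and did not pass.

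LPS replicates 2 and 3 had the highest Nfatc1 and also the highest microglia and astrocyte marker sums of their group. Control replicate 4, with the highest microglia and astrocyte marker sums of all libraries, had the lowest Nfatc1 of its group. Without these 3 libraries Nfatc1 stood at -0.05 in LPS against control (adjusted p = 0.745) and at -1.75 in Rg1 plus LPS against LPS, where it still passed. Of the 15 microglia and macrophage markers 8 fell and 0 rose in Rg1 plus LPS against LPS (median log2 fold change -1.42), 5 fell against control, and 0 passed in LPS against control. Over all genes 23.2% and 18.1% were called lower in Rg1 plus LPS against LPS and against control. In LPS against control 23.7% of all genes were called. None of the 15 markers was at 0 in a whole group. Csf1r, a defining marker of these cells, had means of 4.73, 5.96 and 1.31 CPM in control, LPS and Rg1 plus LPS, against 54.1, 64.1 and 15.9 CPM of Nfatc1. Other microglia markers went the other way, with their highest means in Rg1 plus LPS. These were Tmem119 (30.7, 28.4 and 36.0 CPM), P2ry12 (0.385, 0.201 and 0.47 CPM) and Aif1 (0.356, 0.421 and 0.606 CPM). The 8 endothelial markers summed to 131 to 159 CPM in control, 166 to 193 CPM with LPS and 92.7 to 109 CPM with Rg1 plus LPS, with no overlap, the order of groups that Nfatc1 and Nfat5 means also had. Most of the sum was Cdh5 (means 121, 141 and 86.8 CPM), and Flt1 had 10.6, 22.9 and 3.10 CPM. Of 4 tested, 1 rose and 0 fell in LPS against control, where 13.8% of all genes were called higher. In Rg1 plus LPS 3 fell against control and 2 against LPS, where 18.1% and 23.2% of all genes were called lower. Cldn5, a defining endothelial marker, was at 0 in every control library, and Pecam1 had means of 0.0643, 0.079 and 0.183 CPM. The part of any of these kinds of cell in the results on Nfatc1, Nfat5 and Rcan1 was not tested.

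Nfatc3 was the steadiest of the calcineurin-dependent factors. It lies on chromosome 8 at 106058818 to 106130537. Its libraries ranged from 43.8 to 51.5 CPM in control, from 50.8 to 66.0 CPM with LPS and from 52.2 to 64.7 CPM with Rg1 plus LPS, with means of 48.7 ± 3.19, 60.6 ± 6.17 and 56.2 ± 5.66 CPM (SD, n = 5). It rose in LPS by 0.32 ± 0.08 on the log2 scale (edgeR adjusted p = 0.00977), although LPS replicate 3, at 50.8 CPM, lay inside the control range. Every Rg1 plus LPS library lay above every control library, but the difference of 0.21 ± 0.08 (95% interval 0.04 to 0.38) missed the threshold, with an edgeR adjusted p = 0.0556. That call was near the line: it passed without Rg1 plus LPS replicate 2 (adjusted p = 0.043), 3 (0.0377) or 5 (0.0333), and at 0.38 (adjusted p = 0.00143) once the trend of level with gene length was removed from each library. The treated groups differed by -0.11 ± 0.08 (95% interval -0.28 to 0.06, adjusted p = 0.298). Nfatc3 shares exon bases with Esrp2 on the opposite strand (Esrp2 means 1.84, 2.62 and 1.48 CPM), and since the strand setting of the counting is not given in the sources used here, reads of the shared stretch cannot be told apart.

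Nfatc4 was at about the same low level in both treated groups. It lies on chromosome 14 at 55824795 to 55833943 on the plus strand. Control libraries held 78.9, 69.9, 74.9, 75.0 and 70.8 CPM. LPS libraries held 36.4, 40.0, 36.0, 33.3 and 35.6 CPM, and Rg1 plus LPS libraries 27.3, 43.9, 35.8, 34.9 and 47.8 CPM. All 10 treated libraries lay below all control libraries, while the Rg1 plus LPS libraries spread on both sides of the LPS libraries. The fall was 2.04-fold in LPS (log2 fold change -1.03 ± 0.11, edgeR adjusted p = 3.66e-06) and 1.95-fold in Rg1 plus LPS (-0.96 ± 0.11, adjusted p = 8.5e-06). Between the treated groups the difference was 0.07 ± 0.11 (95% interval -0.17 to 0.30, adjusted p = 0.663), an interval that leaves room for modest differences either way. Within Rg1 plus LPS the summed markers of mural cells and fibroblasts were 1800, 4030, 3110, 2440 and 4600 CPM for replicates 1 to 5, the same order as Nfatc4. Acta2 and Col1a1 had the highest means of these markers there (1350 and 1320 CPM), while Rgs5 and Kcnj8 had 0.93 and 0.00991 CPM. In control the summed markers were 3550 to 4180 CPM and in LPS 3580 to 5740 CPM. Of 7 such markers tested 0 passed in LPS against control, where Nfatc4 fell and 23.7% of all genes were called. Their part in the spread of Nfatc4 was not tested.

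**Figure D2:**
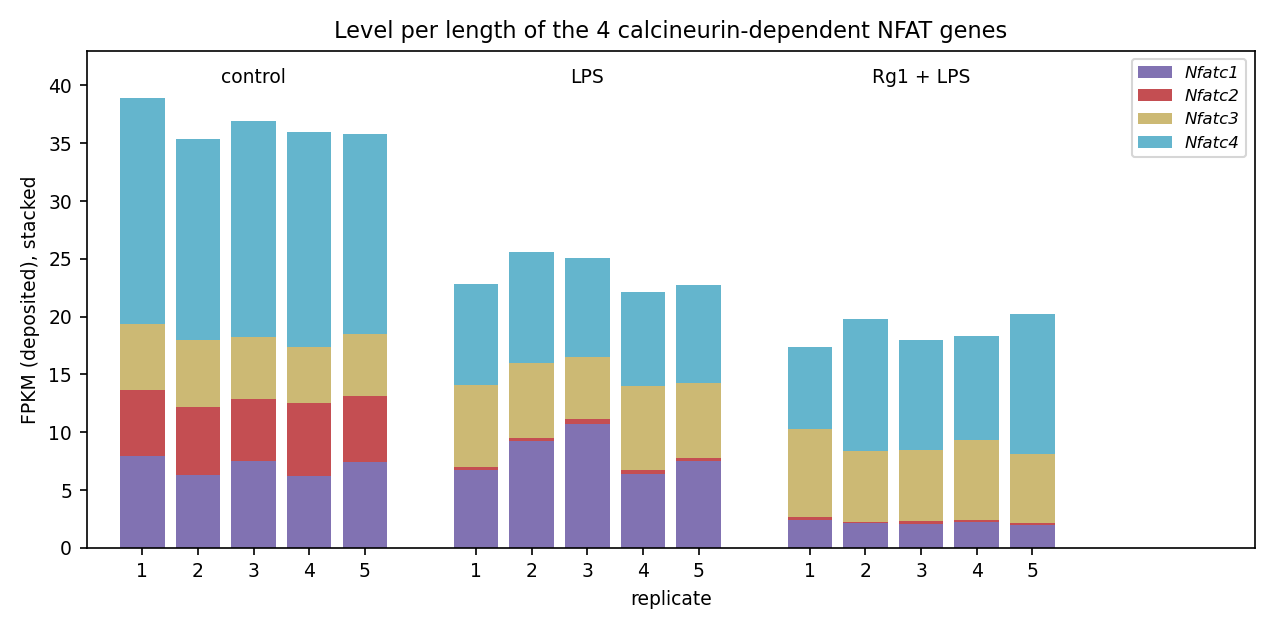
Deposited FPKM of Nfatc1, Nfatc2, Nfatc3 and Nfatc4 stacked for each library (linear axis from 0, replicates 1 to 5 of each group). The stack is 35.4 to 38.8 FPKM in control, 22.2 to 25.6 FPKM with LPS and 17.4 to 20.2 FPKM with Rg1 plus LPS, and the Nfatc2 layer is thin in all treated libraries.

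Per length, which allows levels of different genes to be compared, the summed level of the 4 calcineurin-dependent genes was 36.6 ± 1.39 FPKM (control), 23.7 ± 1.55 FPKM (LPS) and 18.7 ± 1.21 FPKM (Rg1 plus LPS; SD, n = 5), and no 2 groups overlapped. Since Nfatc2 is part of the sum, this is a description. Nfatc4 made up 50.0% of the sum in control, 36.8% with LPS and 52.1% with Rg1 plus LPS. Nfatc2 went from 15.9% to 1.21% and 0.962%. Nfatc1 took 19.3%, 34.1% and 11.7%, and Nfatc3 took 14.8%, 27.9% and 35.3%. The second most abundant of the 4 was thus Nfatc1 in control and LPS and Nfatc3 in Rg1 plus LPS. In the control libraries Nfatc1, Nfatc2, Nfatc3 and Nfat5 stood at 7.08, 5.80, 5.42 and 5.32 FPKM, and neighbours in this order overlapped. In LPS the order was Nfatc4, Nfatc1, Nfat5 and Nfatc3 (8.70, 8.13, 7.42 and 6.56 FPKM, neighbours overlapping), with Nfatc2 apart at 0.288 FPKM. After Rg1 plus LPS it was Nfatc4 and Nfatc3 (9.82 and 6.57 FPKM, overlapping), then Nfat5 at 3.98, Nfatc1 at 2.17 and Nfatc2 at 0.177 FPKM, each apart from the next.

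Nfat5, the tonicity-responsive member, stood above control in LPS and below it in Rg1 plus LPS. It lies on chromosome 8 at 107293435 to 107379517. Control libraries held 109, 112, 109, 106 and 123 CPM. LPS libraries held 174, 168, 145, 177 and 139 CPM, all above control. Rg1 plus LPS libraries held 100, 76.7, 83.7, 77.2 and 61.5 CPM, all below control. It rose in LPS 1.44-fold (log2 fold change 0.52 ± 0.10, edgeR adjusted p = 0.00146). Under Rg1 plus LPS it was 2.01-fold lower than in LPS (-1.01 ± 0.10, adjusted p = 1.04e-06) and 1.40-fold lower than in control (-0.49 ± 0.10, adjusted p = 0.0017). The Nfat5 gene model of 20917 bases is longer than 98.5% of the genes tested. With the trend of level with length removed, the difference from control in Rg1 plus LPS was -0.24 (edgeR adjusted p = 0.0703) and no longer passed, while the difference from LPS did.

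Rcan1 was the most abundant of the 7 per length in every group, with 59.3 ± 9.12 FPKM under control conditions, 57.4 ± 8.33 FPKM after LPS and 32.6 ± 1.73 FPKM after Rg1 plus LPS (SD, n = 5). It lies on chromosome 16 at 92391951 to 92466169 on the minus strand. Control libraries held 145, 136, 126, 188 and 159 CPM and LPS libraries 129, 147, 190, 144 and 144 CPM. Rg1 plus LPS libraries held 83.3, 72.8, 80.7, 79.5 and 80.1 CPM. Control and LPS libraries covered the same range, and every Rg1 plus LPS library lay below all of them. LPS left a difference of 0.00 ± 0.10 (95% interval -0.22 to 0.22, edgeR adjusted p = 0.994). Rg1 plus LPS libraries had it 1.90-fold lower than in control and than in LPS (log2 fold change -0.93 ± 0.11 for both, adjusted p = 6.84e-06 and 3.05e-06). Its highest values, 188 and 190 CPM, were in control replicate 4 and LPS replicate 3. Both libraries also had the highest microglia and astrocyte marker sums of their groups. Without these and LPS replicate 2, Rcan1 was still lower than in LPS, by 0.79 on the log2 scale, and passed.

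Rcan2, at 27.9, 21.9 and 22.3 FPKM the second most abundant of the 7 in every group, was not called in any comparison. It lies on chromosome 17 at 43801352 to 44039516. Its libraries ranged from 104 to 127 CPM in control, from 78.8 to 121 CPM with LPS and from 60.6 to 112 CPM with Rg1 plus LPS. In LPS against control the difference was -0.30 ± 0.15 (95% interval -0.62 to 0.02, edgeR adjusted p = 0.157), and it was called without LPS replicate 3 (-0.42, adjusted p = 0.0409). Against control, Rg1 plus LPS stood at -0.39 ± 0.15 (95% interval -0.70 to -0.07, adjusted p = 0.053), and it was called without Rg1 plus LPS replicate 2 (0.0452) or 3 (0.0232). Between the treated groups it was -0.08 ± 0.15 (95% interval -0.40 to 0.23, adjusted p = 0.672). Rcan2 was lowest in Rg1 plus LPS replicates 1 and 4, the libraries of that group with the lowest mural and fibroblast marker sums. Over all libraries of that group Rcan2 had the same order as the astrocyte marker sums. These were 6280, 7930, 9860, 6550 and 7630 CPM for replicates 1 to 5. The sums of 10 oligodendrocyte lineage markers (393 to 531 CPM) had this order too. Among these 10, Olig1 and Cnp had the highest means in that group (265 and 101 CPM), while Sox10 and Mog had 0.253 and 0.0288 CPM. The part of these kinds of cell in the spread of Rcan2 was not tested.

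**Figure D3:**
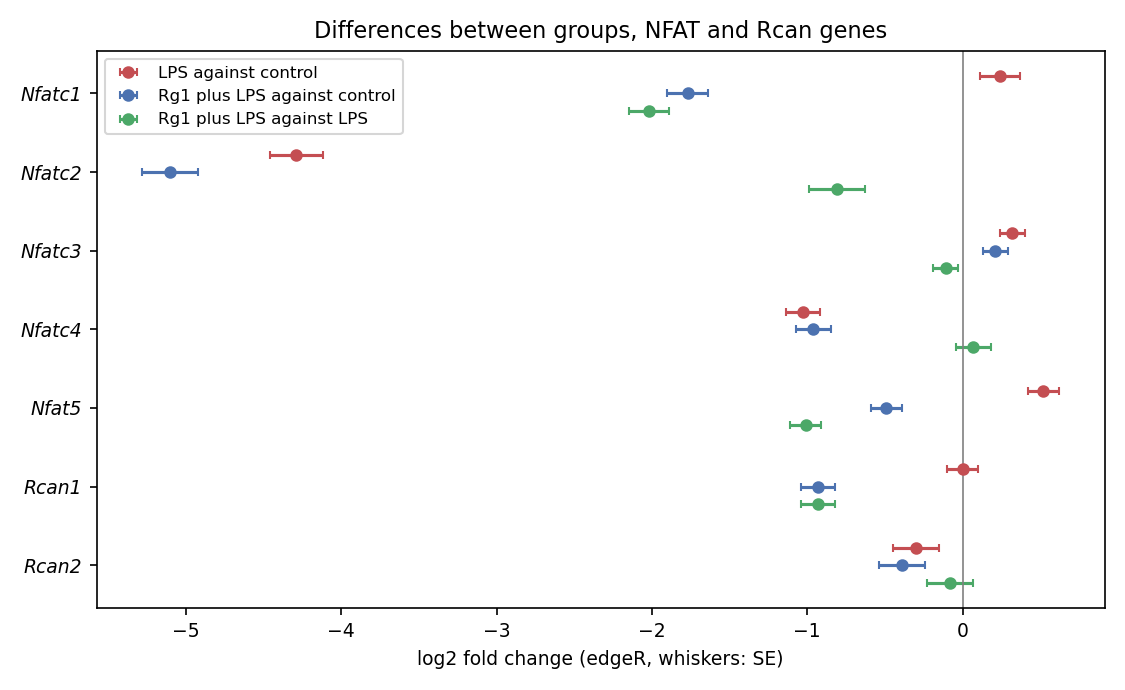
Log2 fold change of each gene in the 3 comparisons (horizontal axis, points from edgeR, whiskers SE). Nfatc2 stands at -4.29 and -5.10 against control, Nfatc1 at -1.77 and -2.02 wherever Rg1 plus LPS was compared, and Rcan1 at 0.00 in LPS and -0.93 in Rg1 plus LPS.

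Leaving Nfatc2 aside, LPS against control had 3 of 6 genes called, with Nfatc3 and Nfat5 higher and Nfatc4 lower, where 23.7% of all genes tested were called. For Rg1 plus LPS against control 4 of 6 fell, Nfatc1, Nfatc4, Nfat5 and Rcan1, and 0 rose, where 36.9% of all genes were called, 18.8% higher and 18.1% lower. For Rg1 plus LPS against LPS 4 of 7 fell, Nfatc1, Nfatc2, Nfat5 and Rcan1, and 0 rose, where 45.4% were called and 23.2% were called lower. The libraries of the groups did not overlap for 3, 6 and 3 of the 7 in these comparisons, Nfatc2 counted in the first and second, against 20.4%, 26.2% and 27.5% of all genes. In LPS against control 7.64% of all genes were lower without overlap, as Nfatc2 and Nfatc4 were. Since the set was chosen through both comparisons with control, its counts there are printed beside the background and not read against it. The 3 comparisons share libraries pairwise, so their results are not independent. With scaling to library size alone, in place of TMM, the share of called genes that were higher went from 58.5% to 45.9% in LPS against control, from 50.9% to 63.9% in Rg1 plus LPS against control and from 48.9% to 65% in Rg1 plus LPS against LPS. In the last the median of all genes then stood at 0.14, and the same number of the 7 passed.

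The genes whose levels most resembled those of Nfatc2 over the 15 libraries, by Pearson's r of log2 CPM among 10645 genes of at least 5 CPM, were Nptx1 (0.98), Tet3 (0.979), Tiparp (0.974), Nefm (0.974) and Cipc (0.973). These values describe 3 clusters of libraries and carry no p. Nptx1, a neuronal pentraxin gene, had means of 65.0, 4.86 and 2.47 CPM in control, LPS and Rg1 plus LPS, close to the pattern of Nfatc2. Tet3, for an enzyme that oxidises methylated cytosine, had 41.1, 14.3 and 8.52 CPM. Tiparp, a target gene of the aryl hydrocarbon receptor, had 294, 55.4 and 53.1 CPM, and the neurofilament gene Nefm 120, 17.2 and 11.0 CPM. Cipc, which encodes a regulator of the circadian CLOCK protein, had the same shape over a far smaller range, 72.7, 53.7 and 50.7 CPM. Since Nptx1 and Nefm are known from neurons, the neuron markers are given beside them: they summed to 669 to 790 CPM in control, 534 to 689 CPM with LPS and 484 to 699 CPM with Rg1 plus LPS. Of 8 such markers tested 3 fell and 0 rose in LPS against control, where 9.82% of all genes were called lower. In Rg1 plus LPS against control 3 of these markers fell and 1 rose, where 18.1% of all genes were called lower and 18.8% higher. The list of neuron markers holds Nefm itself and the neurofilament gene Nefl (16.2, 1.52 and 1.70 CPM). Map2 (120, 97.3 and 106 CPM) and Gad1 (5.64, 4.74 and 3.21 CPM) also had lower means in both treated groups. Stmn2 (434, 445 and 440 CPM) and Tubb3 (28.7, 33.0 and 39.5 CPM) were not lower there. The part of neurons in the pattern of Nfatc2 was not tested. Those most like Rcan1 were B4galt5 (r = 0.979), Nr4a3 (0.965), Slc66a2 (0.962), Phlda1 (0.96) and Ppp1r15b (0.957). Nr4a3, an immediate early gene for a nuclear receptor, had 20.8, 17.7 and 2.00 CPM, and B4galt5, for a galactosyltransferase, 67.9, 69.7 and 29.5 CPM. The other 3 likewise had their lowest means in Rg1 plus LPS, such as Ppp1r15b, for a regulatory subunit of the phosphatase of eIF2 alpha, with 104, 117 and 59.0 CPM. Phlda1 was higher in LPS than in control, with 84.6, 108 and 32.8 CPM.

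Around these 7 genes, the subunits of calcineurin itself hardly moved. Of 7 tested subunit and calmodulin genes 0 passed in LPS against control (median log2 fold change -0.05, where all genes had -0.003) and 0 in Rg1 plus LPS against LPS (-0.01, all genes 0.028). Over all genes 23.7% and 45.4% were called in these 2 comparisons, and 36.9% in Rg1 plus LPS against control. In LPS against control the smallest p of the 7 was that of the calmodulin gene Calm2 (0.12 ± 0.06, edgeR adjusted p = 0.148). With Rg1 plus LPS against control 1 fell, Ppp3r1, for the regulatory subunit, at -0.22 ± 0.08 (adjusted p = 0.0336), a call lost without Rg1 plus LPS replicate 3 or 5 or control replicate 2, 3, 4 or 5. The catalytic subunit gene Ppp3ca had 193, 176 and 182 CPM in control, LPS and Rg1 plus LPS. Between the treated groups Ppp3r1 had -0.17 ± 0.08 (adjusted p = 0.0756) and Ppp3cb, another catalytic subunit gene, -0.17 ± 0.09 (0.158).

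Among 9 genes for calcineurin binders and inhibitors other than Rcan1 and Rcan2, 3 rose in LPS, 1 rose and 3 fell in Rg1 plus LPS against control, and 1 rose and 5 fell in Rg1 plus LPS against LPS. Over all genes 23.7%, 36.9% and 45.4% were called in these comparisons. Fkbp5, for an immunophilin that also regulates the glucocorticoid receptor, had 12.9, 19.6 and 12.7 CPM in control, LPS and Rg1 plus LPS (log2 fold change 0.60 ± 0.11 in LPS, edgeR adjusted p = 0.000785). Akap5, for an anchoring protein that holds calcineurin at membranes, rose in LPS by 1.80 ± 0.40 from 0.401 to 1.40 CPM. Cabin1, a calcineurin inhibitor gene, rose in LPS by 0.19 ± 0.05 and fell in Rg1 plus LPS against LPS (-0.37 ± 0.05) and against control (-0.18 ± 0.05). With the length trend removed it no longer passed in LPS (0.15, adjusted p = 0.0576) or in Rg1 plus LPS against control (-0.03, adjusted p = 0.7), and stood at -0.18 against LPS. Its call in LPS was also lost without control replicate 4 (adjusted p = 0.0565) and without that library and LPS replicates 2 and 3 (0.11, adjusted p = 0.192), and its call against control with scaling to library size alone (-0.11, adjusted p = 0.0735). Fkbp8 went the other way, 0.27 ± 0.05 higher in Rg1 plus LPS than in LPS and 0.22 ± 0.05 higher than in control. Chp1, for a calcineurin-like calcium-binding protein, fell by 0.28 ± 0.06 against control and 0.20 ± 0.06 against LPS, the latter not with scaling to library size alone (-0.09, adjusted p = 0.221), and Akap1 by 0.28 ± 0.07 against control. Background medians of all genes were -0.003, 0.011 and 0.028, and those of these 9 genes 0.08, -0.02 and -0.17.

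Of 14 genes for store-operated calcium entry and calcium release, the route by which calcineurin is usually engaged, 4 rose and 1 fell in LPS (median 0.04), where 13.8% of all genes were called higher and 9.82% lower. Orai2, for a pore subunit of the plasma membrane channel, had 34.8 CPM in control, 87.0 CPM with LPS and 37.6 CPM with Rg1 plus LPS (log2 fold change 1.32 ± 0.07 in LPS, edgeR adjusted p = 2.02e-10). Stim2, for a sensor of the calcium store, rose by 0.66 ± 0.07 and Itpr3, for an inositol trisphosphate receptor, by 0.93 ± 0.13. Saraf, for a protein that turns the channel off, fell by 0.22 ± 0.06, a call lost without LPS replicate 1. From LPS to Rg1 plus LPS 9 fell and 2 rose (median -0.28), beside 23.2% lower and 22.2% higher over all genes: Orai2 had -1.21 ± 0.07, Stim2 -0.91 ± 0.07 and Itpr1 -0.71 ± 0.06, while Orai3 (0.37 ± 0.08) and Saraf (0.24 ± 0.06) rose. Many of these genes are long, and with the length trend removed 5 fell. The call of Saraf then ended (0.07, adjusted p = 0.379), and Orai3 stood at 0.21. Against control 5 fell and 1 rose in Rg1 plus LPS (median -0.19; 18.1% and 18.8% over all genes), with Itpr1 at -0.68 ± 0.06, Itpr2 at -0.40 ± 0.11, Orai3 at 0.35 ± 0.08 and Atp2a2, the calcium pump that refills the store, at -0.26 ± 0.06. With the length trend removed Itpr2 no longer passed (-0.19, adjusted p = 0.168), and Orai3 stood at 0.21 here too.

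Of 13 genes for kinases and the exportin that return NFAT to the cytoplasm, 3 rose and 2 fell in LPS (median 0.09), where 23.7% of all genes were called. Dyrk2 rose by 0.30 ± 0.07 (edgeR adjusted p = 0.00694) and Csnk1a1, for a casein kinase 1, fell by 0.20 ± 0.05. The other calls lay near the threshold: Gsk3a at 0.20 ± 0.06 (adjusted p = 0.0278), Csnk1d at 0.21 ± 0.07 (0.0437) and Dyrk1a at -0.25 ± 0.08 (0.0379). The number that rose went down to 1 without any 1 of LPS replicates 1, 2, 4 and 5 or control replicates 2, 3, 4 and 5, and the number that fell to 1 without any 1 of LPS replicates 1, 2 and 5 or control replicates 1, 2, 3 and 4. With Rg1 plus LPS 6 fell and 0 rose against control (median -0.20), and 8 fell and 1 rose against LPS (median -0.21), where 18.1% and 23.2% of all genes were called lower. Dyrk2 had 22.8, 28.1 and 15.9 CPM in control, LPS and Rg1 plus LPS (-0.52 ± 0.07 against control and -0.82 ± 0.07 against LPS). Hipk2 had -0.40 ± 0.07 and -0.49 ± 0.07, Csnk1a1 -0.41 ± 0.05 against control and Gsk3b -0.46 ± 0.07 against LPS. Dyrk1a rose by 0.25 ± 0.08 against LPS, to its control level of 114 CPM, and this call was lost without LPS replicate 2 or 5 or Rg1 plus LPS replicate 1, among others. With the length trend removed 3 fell against control, Hipk2 stood at -0.17 and -0.25, Csnk1a1 at -0.24 against control, and Gsk3b at -0.25 and Dyrk1a at 0.46 against LPS. With scaling to library size alone 5 fell against LPS.

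**Figure D4:**
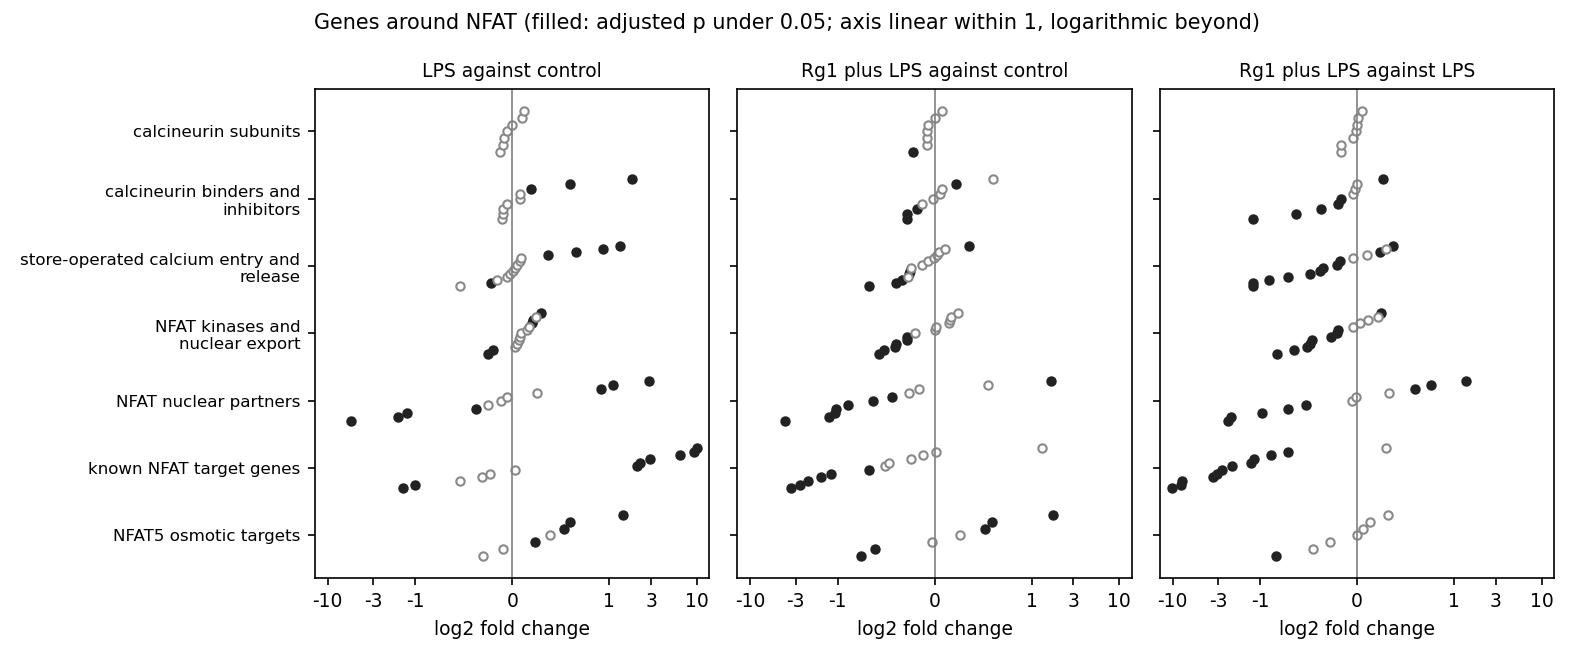
Log2 fold changes of the tested genes of 7 lists around NFAT in the 3 comparisons (axis linear within 1 and logarithmic beyond, filled points passing edgeR's adjusted p under 0.05). Calcineurin subunits lie near 0, and of 12 known NFAT targets 6 rose in LPS while 11 fell in Rg1 plus LPS against LPS.

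Of 11 nuclear partners, which bind DNA beside NFAT or share its regulation, 3 rose and 4 fell in LPS (median -0.12), where 13.8% of all genes were called higher and 9.82% lower. Fosb, an AP-1 gene, went from 91.7 to 2.21 CPM (log2 fold change -5.37 ± 0.43, edgeR adjusted p = 1.63e-07), while Junb rose from 148 to 318 CPM (1.10 ± 0.11), Batf from 1.12 to 8.21 CPM (2.88 ± 0.30) and Fos by 0.91 ± 0.21. Mef2c fell by 1.59 ± 0.23 and Irf2bp2, for a corepressor of NFATc2, by 1.25 ± 0.07. In Rg1 plus LPS 7 fell and 1 rose against control (median -0.64), where 36.9% of all genes were called: Junb had -1.06 ± 0.11, Mef2a -1.03 ± 0.10 and Foxp1 -0.89 ± 0.08, and Fos 1.67 ± 0.21. Against LPS 5 fell and 3 rose (median -0.05), where 45.4% of all genes were called. Junb (-2.17 ± 0.11), Batf (-2.32 ± 0.29) and Mef2a (-0.98 ± 0.10) were lower, and Fos (0.76 ± 0.21), Fosb (1.37 ± 0.41) and Irf2bp2 (0.60 ± 0.07) higher. Fosb stood at 0.73 without Rg1 plus LPS replicate 1, and did not pass with limma voom (adjusted p = 0.0581) or without LPS replicates 2 and 3 and control replicate 4 (adjusted p = 0.065). Fosb thus had 91.7, 2.21 and 5.71 CPM over control, LPS and Rg1 plus LPS, low in both treated groups as Nfatc2 was.

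Of 12 tested genes known as NFAT targets in other cells, most of which NF-kB or other factors also drive, 6 rose and 2 fell in LPS (median 1.06), where 13.8% of all genes were called higher and 9.82% lower. Csf2 counts added up to 3 in control and to 3798 after LPS, which is 1270 times as many per library size (95% counting interval 435 to 6170). Tnf rose from 0.0740 to 49.9 CPM (log2 fold change 9.38 ± 0.44, edgeR adjusted p = 2.64e-10) and Il6 from 0.304 to 25.6 CPM (6.37 ± 0.27). The immediate early genes Egr3 and Nr4a1 fell by 1.39 ± 0.22 and 1.00 ± 0.21. In Rg1 plus LPS against LPS 11 fell and 0 rose (median -2.41; 1 rose without Rg1 plus LPS replicate 1), where 23.2% of all genes were called lower. Csf2 was back at 3 counts (ratio 1400, 95% counting interval 480 to 6810), Il6 had -7.90 ± 0.30 and Tnf -8.06 ± 0.39. Against control 6 fell and 0 rose (median -0.60; 18.1% of all genes called lower), with Nr4a3 at -3.37 ± 0.25, Egr3 at -2.66 ± 0.23 and Itpr1, also among the calcium release genes, at -0.68 ± 0.06. Egr3 thus had 71.0, 27.1 and 11.3 CPM over control, LPS and Rg1 plus LPS.

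Of 7 tested targets of NFAT5 in hypertonic cells, 4 rose and 0 fell in LPS (median 0.39), where 13.8% of all genes were called higher. Akr1b3, for the aldose reductase that makes sorbitol, rose from 85.8 to 124 CPM (log2 fold change 0.53 ± 0.12, edgeR adjusted p = 0.00337). The taurine transporter gene Slc6a6 rose by 0.23 ± 0.07 and the heat shock gene Hspa1b by 1.45 ± 0.49, the latter near the threshold (adjusted p = 0.0437). Hspa1b has a near-identical copy, Hspa1a, so that its counts are uncertain. In this comparison 2 rose without LPS replicate 4 or control replicate 5. In Rg1 plus LPS against LPS only Slc6a6 passed of the 7 (-0.84 ± 0.07, adjusted p = 4.71e-08), where 45.4% of all genes were called. The number of the 7 that fell was 3 without Rg1 plus LPS replicate 1 and 2 without LPS replicate 3. Against control 3 rose, Hspa1b (1.77 ± 0.49, adjusted p = 0.0108), S100a4 (0.59 ± 0.20, 0.0334) and Slc38a2 (0.52 ± 0.19, 0.045). Hspa1b had 40.0 ± 39.4 CPM (SD) in Rg1 plus LPS. In the same comparison 2 fell, Slc6a6 (-0.61 ± 0.07) and the inositol transporter gene Slc5a3 (-0.76 ± 0.18). Over all genes 18.8% were called higher and 18.1% lower. Here 1 rose without Rg1 plus LPS replicate 1 or 4 or control replicate 3 or 4. Without Rg1 plus LPS replicate 1, Hspa1b stood at 1.02 and Slc38a2 at 0.30, and with the length trend removed S100a4 no longer passed (0.31, adjusted p = 0.298). With limma voom Hspa1b did not pass (adjusted p = 0.0701). Over the 19 alternatives described in the closing section, Slc38a2 lost its call in 11 and S100a4 in 7. Slc6a6 had 308, 363 and 202 CPM over control, LPS and Rg1 plus LPS. Its call in LPS was lost without control replicate 5 (adjusted p = 0.0532) and with the length trend removed (0.0579).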

How the data were processed

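The authors deposited, for each of the 15 libraries, raw counts per gene symbol and FPKM values, which divide each count by gene length and library total. The builds GRCm38 and mm10 come from the submitters' processing notes. For aligner, counter, annotation and strandedness nothing is given in the sources used here. The library kit was VAHTS Universal V6, per the labels' protocols. In each FPKM file 37 damaged rows, none of them a gene described here, were left out.

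The count model was edgeR 4.0.16 under R 4.3.3, with limma 3.58.1 for voom. The filter filterByExpr kept 15362 genes, TMM factors scaled the libraries, and a robust quasi-likelihood fit with the group as its only term took all 15 libraries, at 34.2 to 41.8 M counts each. Adjusted p under 0.05 (Benjamini-Hochberg, all genes tested) is called. This fit was tested on simulated data, where not all changed genes were recovered, so a gene that is not called may still differ. DESeq2 1.42.0 served as an alternative. Gene lists were matched by symbol, and Nron, Il4, Cd40lg and the T cell markers Cd3e, Cd3g and Trac are not analysed here. Of each list, up to 3 genes that rose and 3 that fell are named per comparison, those of smallest adjusted p first; where none passed, up to 2 are named. A gene that this rule names is not reported here. Other genes named for their levels were chosen after their values were seen. The 7 genes and all lists were chosen with earlier results of these data known. Counting intervals are exact at 95% and cover counting error only. Promoter windows are from RefSeq on GRCm38.p6. Replicate numbers were not taken to pair libraries of different groups.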

Additional observations from a re-analysis of the deposited data

How the results depend on the processing

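Over 19 alternatives for each of the 7 genes and 3 comparisons (other scaling, no filter, DESeq2, limma voom, groups fitted alone, a replicate term, the length trend removed and libraries left out), 345 of 361 tested values kept their side of the threshold and 16 did not. Values of Nfatc2 against control carry no test and are not counted. All 16 concerned Nfatc3, Rcan2 and Nfat5. Besides those given above, Nfatc3 passed in Rg1 plus LPS against control with scaling to library size alone (0.28, adjusted p = 0.0171), Rcan2 in Rg1 plus LPS against control passed with DESeq2 (adjusted p = 0.0292), voom (0.0347) and RLE scaling (0.0439), and with the 2 groups alone Nfatc3 passed there (0.22, adjusted p = 0.043) and Rcan2 in LPS against control (-0.31, adjusted p = 0.043). Between 3 and 4, 4 and 6, and 4 and 4 of the genes were called in the 3 comparisons. Leaving out a library gave 2847 to 4440, 4903 to 5836 and 6290 to 7327 genes in all. The joint removal of LPS replicates 2 and 3 and control replicate 4 was chosen after seeing the data. In LPS against control it ended the calls of Gsk3a (edgeR adjusted p = 0.0733), Csnk1d (0.147), Dyrk1a (0.207), Slc6a6 (0.0905) and Hspa1b (0.0907). For Rg1 plus LPS against control it ended those of Ppp3r1 (0.0943) and Slc38a2 (0.0676). For Rg1 plus LPS against LPS it ended that of Dyrk1a (0.0723). The losses of Cabin1 and Fosb are given above.

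Replicate numbers were checked for pairing by the correlation of same-numbered libraries' deviations from their group means. For Rg1 plus LPS and LPS it was 0.168, 0.0499, 0.423, 0.366 and 0.424 for replicates 1 to 5, and replicates 3, 4 and 5 correlated best with their own number, a hint from the data and not from the design. Since replicate 2 lay under 0.1, the numbers were not taken as pairs. For the comparisons with control 2 of 10 lay above 0.1, down to -0.222. With the replicate number as a block, 3, 6 and 4 of the genes were called, and 4113, 6027 and 7254 genes in all. Nfatc3 (0.20, adjusted p = 0.0353) and Rcan2 (-0.42, adjusted p = 0.0109) then passed in Rg1 plus LPS against control.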
